A study of Mus musculus with 6 samples.

Results

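Cells that carried transcripts of Elane, the gene of neutrophil elastase, were present among granulocyte-macrophage progenitors before any induction. They were defined by their own count: in the libraries taken at 0 h, a cell with 3 or more Elane molecules was called Elane-positive and was compared with the cells of its library in which no Elane molecule was found. Molecules were counted by unique molecular identifiers (UMIs), which count copies of a transcript made during amplification only once. There were 63 Elane-positive cells among the 1120 uninduced cells kept, out of 5872 kept cells in all 6 libraries. The CAF-1 OFF library at 0 h held 46 of them and 524 cells without an Elane UMI (Elane-zero cells). The HOXA9 OFF library at 0 h held 17 Elane-positive and 404 Elane-zero cells.

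The cells were iGMPs, a mouse C57BI/6 progenitor line from the GMP stage that is held in self-renewal by Hoxa9::ER, a fusion of HOXA9 with a hormone-binding receptor part that answers to estrogen, and that carries the Lys-GFP reporter. All uninduced cells grew with stem cell factor and with β-estradiol at 150 ng/ml, which keeps HOXA9 active. The CAF-1 OFF library at 0 h came from a clone with an IPTG-inducible shRNA to Chaf1b, which encodes part of the CAF-1 complex that loads histones behind the replication fork, before IPTG was added. The HOXA9 OFF library at 0 h came from a clone with a control shRNA, before estradiol was withdrawn. Later libraries of each arm, at 48 and 96 h of 500 µM IPTG or of culture without estradiol, enter only the last comparison. Each arm is thus 1 clone and each time point 1 library, so that clone, library and arm cannot be told apart.

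Elastase belongs to the primary (azurophil) granules, which neutrophil precursors fill at the promyelocyte stage together with myeloperoxidase (Mpo), proteinase 3 (Prtn3) and cathepsin G (Ctsg). Transcription of these genes is known to depend on factors such as PU.1, C/EBPα and GFI1, and it fades as the cells move on to later granules. GMPs are known to be mixed in this respect, since granulocytic genes switch on in some of them before others.

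The promoters of the 4 protease and peroxidase genes are shown because they are the known targets of the same myeloid factors. RefSeq sequences (GRCm38.p6) run from 250 bases before to 50 bases after the start of each gene, 5′ to 3′ on the coding strand. They lie at chr10:79886062-79886361 on the plus strand for Elane, chr10:79879417-79879716 on the plus strand for Prtn3, chr11:87793534-87793833 on the plus strand for Mpo and chr14:56102525-56102824 on the minus strand for Ctsg. Capitals mark GAGGAAG, a sequence of the kind that PU.1 binds, searched on both strands and chosen after these promoters had been looked at.
Elane: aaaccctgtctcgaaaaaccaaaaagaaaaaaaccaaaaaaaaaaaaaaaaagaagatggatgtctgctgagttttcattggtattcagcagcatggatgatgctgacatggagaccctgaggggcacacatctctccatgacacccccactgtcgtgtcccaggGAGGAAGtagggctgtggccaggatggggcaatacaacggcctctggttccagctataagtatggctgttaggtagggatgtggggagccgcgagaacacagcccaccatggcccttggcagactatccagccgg
Prtn3: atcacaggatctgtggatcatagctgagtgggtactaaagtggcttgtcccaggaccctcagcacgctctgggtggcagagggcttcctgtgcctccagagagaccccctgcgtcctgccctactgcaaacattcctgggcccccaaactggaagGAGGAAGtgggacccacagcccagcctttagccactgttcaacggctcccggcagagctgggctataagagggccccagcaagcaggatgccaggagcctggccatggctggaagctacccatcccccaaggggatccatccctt
Mpo: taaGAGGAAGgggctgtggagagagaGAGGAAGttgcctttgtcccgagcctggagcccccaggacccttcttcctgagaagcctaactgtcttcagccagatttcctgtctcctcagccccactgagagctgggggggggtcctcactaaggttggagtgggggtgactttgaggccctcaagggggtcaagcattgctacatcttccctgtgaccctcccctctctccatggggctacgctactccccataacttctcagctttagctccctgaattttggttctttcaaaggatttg
Ctsg: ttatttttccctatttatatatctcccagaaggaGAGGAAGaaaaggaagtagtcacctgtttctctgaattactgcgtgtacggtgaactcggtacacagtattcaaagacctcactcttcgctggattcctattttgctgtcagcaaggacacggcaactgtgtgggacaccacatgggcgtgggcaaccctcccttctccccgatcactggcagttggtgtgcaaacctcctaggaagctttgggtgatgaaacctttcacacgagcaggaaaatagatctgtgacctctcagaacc
The sequence starts 85 bases before the start of Elane, 95 before that of Prtn3, 247 and 224 before that of Mpo and 216 before that of Ctsg. Over all 27025 RefSeq promoters of this length, 15.4% hold it on either strand. A match describes the letters in the window and says nothing on binding in these cells.

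The Elane counts of the uninduced cells spread widely. In the CAF-1 OFF library, 46 of 647 cells were Elane-positive (7.11%, exact 95% Clopper-Pearson interval 5.25 to 9.37), and in the HOXA9 OFF library 17 of 473 (3.59%, 2.11 to 5.69). These intervals cover counting error only, as do all intervals below. A further 65 and 46 cells held 1 Elane UMI, and 12 and 6 cells held 2. At the lower limit of the class, 3 and 5 cells held exactly 3. The median Elane-positive cell held 8 UMIs in CAF-1 OFF cells and 5 in HOXA9 OFF, and the highest 28 and 46. The Elane-positive cells carried 83.6% of all Elane UMIs of the CAF-1 OFF library and 71.3% of those of the HOXA9 OFF library. The class was drawn by Elane count, so these shares were in part set by the rule. In HOXA9 OFF 1 cell held 46 of the 202 Elane UMIs.

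**Figure D1:**
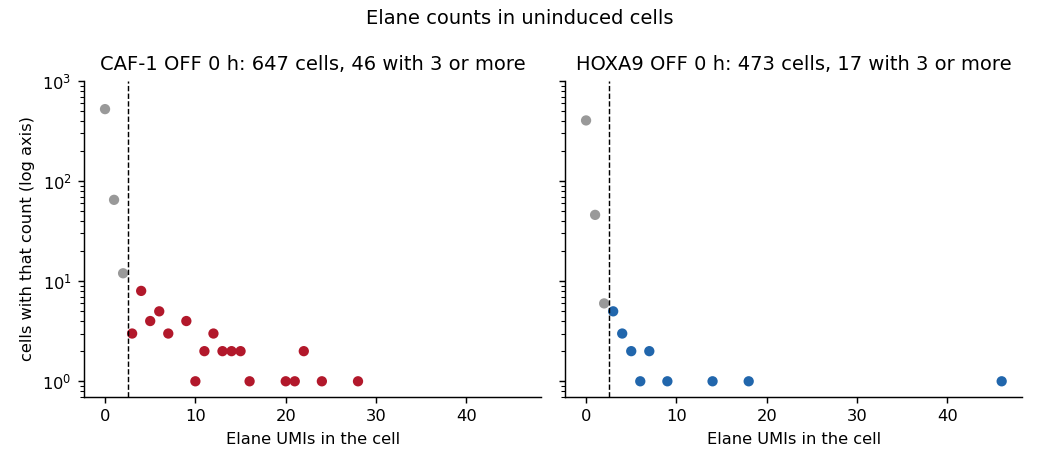
Number of cells (vertical log axis) with each Elane UMI count (horizontal axis) in the uninduced CAF-1 OFF and HOXA9 OFF libraries, with the limit of 3 UMIs as a dashed line and cells below it in grey. Cells without Elane form the largest group (524 and 404), and the Elane-positive cells extend to 28 and 46 UMIs.

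Depth was similar in the classes. Elane-positive cells had a median of 6214.5 UMIs in CAF-1 OFF cells and 8381 in HOXA9 OFF, and Elane-zero cells 6432.5 and 8592.5. The range of the Elane-positive cells was 2908 to 11649 and 7134 to 13270 UMIs. The uninduced libraries held 4214525 and 4190199 UMIs in kept cells. The summed UMIs of the Elane-positive cells without Elane came to 280925 and 155675, against 3373075 and 3521280 for the Elane-zero cells, so the HOXA9 OFF values below are the less precise. No Elane-positive cell shared its barcode with a cell of another library. The level of free RNA was not measured, since no cell type known to lack Elane was set apart in these cultures. The limits on cells (200 to 6000 genes, at most 10% mitochondrial UMIs) removed 41.7% and 66.2% of the barcodes of the uninduced libraries.

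To describe these cells beyond Elane, UMIs were summed per class and library and each gene's share of the sum, without Elane, was scaled to CPM. Ratios are log2((CPM + 20)/(CPM + 20)), which understates changes of low genes, and 2500 genes averaged 50 CPM or more across the 4 sums. At least 2-fold higher in Elane-positive cells were 36 genes in CAF-1 OFF (1.44% of those tested) and 38 in HOXA9 OFF (1.52%), with 27 genes in both (1.08%). At least 2-fold lower were 29 genes (1.16%) and 49 genes (1.96%), with 13 in both (0.52%). No test was made, since the cells were chosen by a count from the same libraries and cells of 1 library are not replicates. What can be said is how far a difference recurred. Of the 36 genes that were higher in CAF-1 OFF, 35 had a ratio above 0 in HOXA9 OFF, with a median of 1.32, while the median of all genes was −0.04. Of the 29 that were lower, 27 had a ratio below 0 there, with a median of −0.90. The level minimum bears on these counts and on the recurrence of the higher genes. A gene nearly absent from Elane-zero cells passes it only by being high in Elane-positive cells. This favours a ratio above 0 in both libraries. Among the genes higher in both, Ly6c2, Gda, Hp, Thbs1 and Gca were below 50 CPM in Elane-zero cells of each library. With the minimum set over all kept cells instead, 14 of the 27 higher genes remained, all 13 lower genes remained, and 22 genes were lower in both. The recurrence was not recomputed under that minimum. A mitochondrial limit of 5% leaves 9 of 46 and 4 of 17 Elane-positive cells, and 260 of 524 and 189 of 404 Elane-zero cells. Under it, 13 of the 27 higher and 6 of the 13 lower genes remained. The median mitochondrial share was 5.58% and 5.42% in Elane-positive cells and 5.01% and 5.05% in Elane-zero cells.

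**Figure D2:**
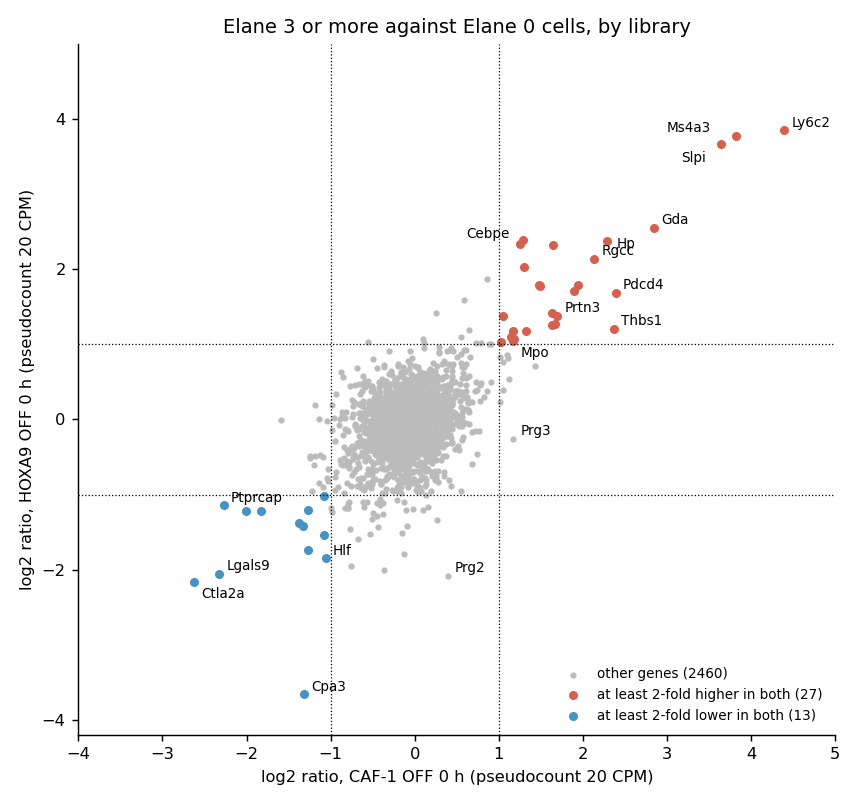
Log2 ratio of Elane-positive over Elane-zero cells (pseudocount 20 CPM) in CAF-1 OFF at 0 h (horizontal) and HOXA9 OFF at 0 h (vertical), with 1 point per gene and dotted lines at 2-fold. The 27 genes higher in both libraries reach 4.39 and 3.85 for Ly6c2, the 13 lower in both include Ctla2a and Lgals9, and Prg2 and Prg3 have ratios of opposite sign.

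The primary granule genes stood higher in sum, although most were present in nearly every cell. Prtn3, Mpo and Ctsg made up much of the sum. They gave 945, 825 and 1793 of its 4828 UMIs in Elane-positive cells of CAF-1 OFF. In HOXA9 OFF they gave 435, 300 and 835 of 2442. The summed level of the whole list, without Elane, was 17186 CPM in Elane-positive and 9079 CPM in Elane-zero cells of CAF-1 OFF, a ratio of 1.89 (1.84 to 1.95). In HOXA9 OFF it was 15687 against 9210 CPM, a ratio of 1.70 (1.63 to 1.77). Cells of the classes overlapped. In CAF-1 OFF the lowest, median and highest Elane-positive cell had 7383, 18047 and 28198 CPM, and the Elane-zero cells 2996, 8822 and 19884 CPM. In HOXA9 OFF these values were 7286, 15207 and 29563 CPM against 3048, 8913 and 38281 CPM. Of the 12 genes of the list, 10 were tested, with 3 at least 2-fold higher in CAF-1 OFF, 2 in HOXA9 OFF and 0 lower, and their median log2 ratio was 0.39 and 0.57.

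Prtn3, whose gene lies beside Elane on chromosome 10 and whose protease is the closest of the group to elastase, differed most. A median Elane-positive cell held 19 Prtn3 UMIs in CAF-1 OFF cells and 24 in HOXA9 OFF, against 6 and 8 in Elane-zero cells. This made 3364 against 1027 CPM, 3.28-fold (3.05 to 3.52), in CAF-1 OFF cells and 2794 against 1063 CPM, 2.63-fold (2.38 to 2.90), in HOXA9 OFF. Every Elane-positive cell had a Prtn3 UMI, but so did 506 of the 524 and 388 of the 404 Elane-zero cells, so Prtn3 differed in level and hardly in presence. Mpo, the peroxidase of the same granules, was at 2937 against 1289 CPM (2.28-fold, 2.11 to 2.45) and at 1927 against 910 CPM (2.12-fold, 1.88 to 2.39). Ctsg was at 6382 against 3076 CPM (2.07-fold, 1.97 to 2.18) and at 5364 against 3140 CPM (1.71-fold, 1.59 to 1.83). Other granule genes differed less. Srgn, the proteoglycan that packs granule proteins, had log2 ratios of 0.61 and 0.92, and Ctsc, the protease that activates elastase and its relatives, of −0.02 and 0.52.

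Among inhibitors of these proteases, Slpi stood apart. Slpi, a secreted inhibitor of neutrophil elastase and cathepsin G, was at 929 CPM (820 to 1049) in Elane-positive and 56.3 CPM (48.6 to 64.9) in Elane-zero cells of CAF-1 OFF, 16.5-fold higher (13.6 to 19.99). In HOXA9 OFF its level was 1195 CPM (1029 to 1379) against 75.5 CPM (66.7 to 85.2), 15.8-fold higher (13.04 to 19.1). A Slpi UMI was present in 41 of 46 and 16 of 17 Elane-positive cells, against 117 of 524 and 108 of 404 Elane-zero cells. After thinning each cell to 3000 UMIs, which left out 1 and 0 Elane-positive and 35 and 8 Elane-zero cells, these shares were 82.2% against 11.5% and 76.5% against 15.2%. Serpinb1a, the intracellular inhibitor of the same proteases, was near equal at 1214 against 1151 CPM and 1310 against 1113 CPM. Of the 5 inhibitor genes tested, Slpi alone passed 2-fold, in either library. Among all genes tested, 1.44% and 1.52% were at least 2-fold higher and 1.16% and 1.96% lower.

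Surface and early granulocyte genes had the largest ratios. Ly6c2, which encodes a Ly6C antigen of granulocyte precursors and monocytes, was at 413 CPM (341 to 495) in Elane-positive cells of the CAF-1 OFF library and at 0.593 CPM (0.0718 to 2.14) in Elane-zero cells. The latter value rests on 2 UMIs, and the ratio of 696 has an interval of 188 to 5819. In HOXA9 OFF, Ly6c2 was at 276 CPM (200 to 372) against 0.568 CPM (0.0688 to 2.05), again from 2 UMIs, a ratio of 486 (127 to 4144). Ly6c2 was nonetheless found in only some of the Elane-positive cells, 22 of 46 and 9 of 17, and in 2 Elane-zero cells of each library. At 3000 UMIs per cell the shares were 40% (25.7 to 55.7) against 0.204% (0.00518 to 1.13) in CAF-1 OFF cells and 41.2% against 0 of 396 cells in HOXA9 OFF.

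Ms4a3, a membrane protein typical of granulocyte-committed GMPs, was 20.5-fold higher (16.5 to 25.5) in CAF-1 OFF, at 833 against 40.6 CPM, and 21.3-fold higher (16.3 to 27.8) in HOXA9 OFF, at 719 against 33.8 CPM. Its UMIs were found in 32 of 46 and 14 of 17 Elane-positive cells and in 92 of 524 and 59 of 404 Elane-zero cells, shares that became 60% and 70.6% against 9.61% and 6.57% at 3000 UMIs per cell. Fcnb, a ficolin of granulocyte precursors below the level minimum, had 13 UMIs in 11 Elane-positive cells and 0 in the 524 Elane-zero cells of CAF-1 OFF, and 11 UMIs in 6 cells against 2 UMIs in HOXA9 OFF. The early granulocyte list, 9 of whose 12 genes were tested, had 6 genes at least 2-fold higher in each library and 0 lower. Those 6 included Ms4a3, Cebpe, Gstm1, Clec5a and Clec12a in both libraries, with Plac8 as the other one in CAF-1 OFF cells and Lta4h in HOXA9 OFF. Of all genes tested, 1.44% and 1.52% were at least 2-fold higher and 1.16% and 1.96% lower. The list median was 1.17 and 1.18 on the log2 scale, the ratios of Clec5a, beside −0.05 and −0.04 for all genes. The level minimum bears on these values. Ms4a3 and Clec12a (37.1 and 26.1 CPM) were below 50 CPM in Elane-zero cells and passed it through the Elane-positive cells. The summed level of the whole list was 2.38-fold higher (2.28 to 2.48) in CAF-1 OFF cells and 2.15-fold higher (2.03 to 2.27) in HOXA9 OFF.

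Most genes of the next stage were absent from both classes. Of 14 late granulocyte genes, 9 had no UMI in the Elane-positive cells of CAF-1 OFF and 8 had none in those of HOXA9 OFF. The Elane-zero cells gave the same counts, 9 and 8, from sums that are many times larger, so equal counts do not mean equal levels. Ltf, Ngp and S100a9 had 0 UMIs in both classes of both libraries, and S100a8 and Camp 1 UMI each in the Elane-positive cells of HOXA9 OFF. Lcn2 had 7 and 6 UMIs in Elane-positive cells (24.9 against 7.41 CPM and 38.5 against 22.4 CPM). Mmp8, neutrophil collagenase, had the most UMIs of the list in CAF-1 OFF, with 37 in 12 Elane-positive cells (132 against 8.30 CPM). In HOXA9 OFF it had 6 UMIs (38.5 against 3.41 CPM). Mmp8 was below the level minimum. The sum of the list was nonetheless higher in Elane-positive cells. In CAF-1 OFF it was 203 against 26.7 CPM, a ratio of 7.60 (5.36 to 10.7), and Mmp8 made up 37 of the 57 UMIs. In HOXA9 OFF it was 103 against 34.4 CPM, a ratio of 2.99 (1.66 to 5.06). Both Elane-positive classes were low in these genes beside the early granulocyte list, which stood at 9216 and 8730 CPM. All 9 markers set for early granulocytes (Mpo, Prtn3, Ctsg, Prss57, Ms4a3, Fcnb, Cebpe, Gfi1 and Gstm1) had a higher CPM in Elane-positive cells in both libraries, but the cells were chosen by a granulocyte gene and no cell type is named from this.

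Other genes higher in both libraries belong to several functions. Gda, guanine deaminase of purine breakdown, had log2 ratios of 2.85 and 2.55, and Hp, haptoglobin, which binds free hemoglobin, of 2.29 and 2.38. Pdcd4, an inhibitor of translation initiation, was at 2.39 and 1.69, Rgcc, a regulator of the cell cycle, at 2.14 in both, and Thbs1, the matrix protein thrombospondin 1, at 2.37 and 1.21. Gca, the granule-associated calcium-binding protein grancalcin, was at 1.94 and 1.79 and Pglyrp1, a granule protein that binds bacterial peptidoglycan, at 1.63 and 1.42. Gstm1, a glutathione transferase, had ratios of 1.89 and 1.72, and Gsr, glutathione reductase, of 1.48 and 1.78. Dstn, which depolymerizes actin, was at 1.48 and 1.79, S100a11 at 1.67 and 1.27, Svip at 1.29 and 2.03, and F630028O10Rik at 1.65 and 2.33. The 6 genes higher in both that are not named here had ratios of 1.02 to 2.38.

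Of the myeloid transcription factors, 7 of 18 were tested, and Cebpe alone passed 2-fold. It was higher, as were 1.44% and 1.52% of all genes tested. Cebpe, the C/EBP family member of granulocyte maturation, was at 160 against 55.4 CPM in CAF-1 OFF (2.89-fold, 2.04 to 4.02) and at 373 against 57.6 CPM in HOXA9 OFF (6.46-fold, 4.74 to 8.69). It was found in 25 of 46 and 16 of 17 Elane-positive cells. Spi1, which encodes PU.1, was at 235 against 160 CPM and 276 against 147 CPM (log2 ratios of 0.50 and 0.83). Gfi1, a repressor needed for neutrophils, was at 39.2 against 25.5 CPM and 122 against 55.7 CPM, and Cebpa, which acts earlier, at 57.0 against 49.8 CPM and 64.2 against 57.1 CPM. The intervals of the Cebpa ratio, 0.639 to 1.91 and 0.532 to 2.11, include 1 in both libraries.

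Other monocyte genes varied in direction. Ccr2, the chemokine receptor of monocytes, was lower in Elane-positive cells, at 271 against 528 CPM and 186 against 364 CPM, just short of 2-fold in both libraries. F13a1, a coagulation factor chain made by monocytes, was at 174 against 124 CPM and 116 against 114 CPM. Irf8, the factor of the monocyte and dendritic branch, was at 60.5 against 21.6 CPM in CAF-1 OFF, from 17 UMIs in 10 Elane-positive cells, and had 0 UMIs in those of HOXA9 OFF against 12.5 CPM. Csf1r, the monocyte growth factor receptor, had 2 and 0 UMIs in Elane-positive cells. Of the 14 monocyte and dendritic genes, 7 and 10 had no UMI in the Elane-positive cells and 5 and 5 had none in the Elane-zero cells, whose sums are many times larger. The whole list summed to 979 against 686 CPM and 585 against 509 CPM, Ly6c2 included.

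**Figure D3:**
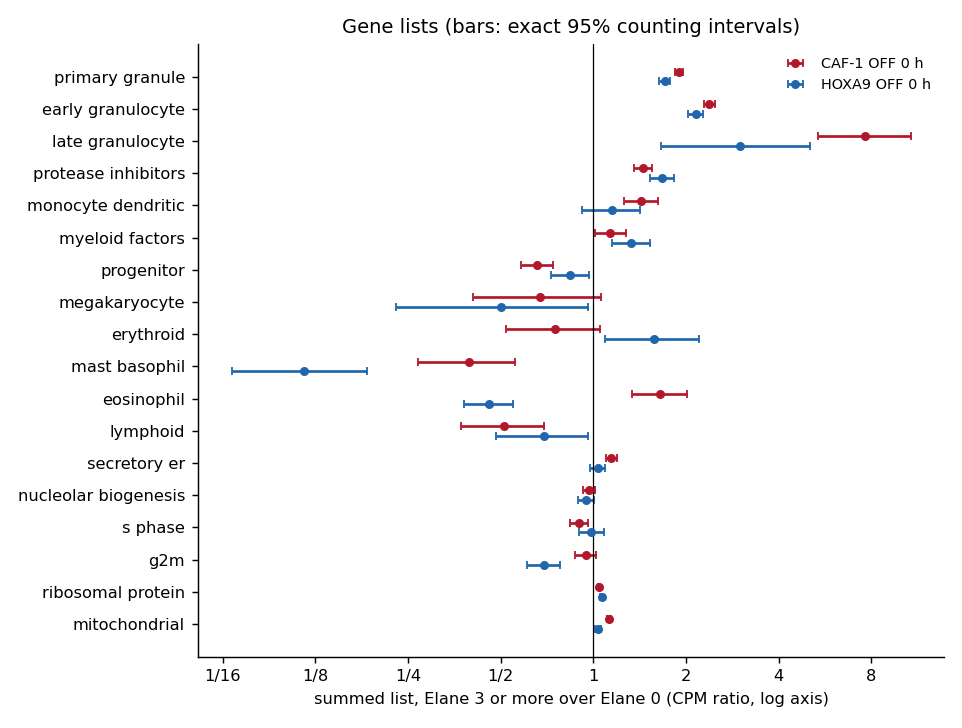
Ratio of the summed CPM of gene lists in Elane-positive over Elane-zero cells (horizontal log axis) in CAF-1 OFF at 0 h (red) and HOXA9 OFF at 0 h (blue), with exact 95% counting intervals as bars. The granulocyte lists and protease inhibitors lie above 1 in both libraries, and the progenitor, mast or basophil, megakaryocyte and lymphoid lists lie below 1 in both. The eosinophil list lies above 1 in CAF-1 OFF cells and below 1 in HOXA9 OFF. The erythroid list lies the other way, at 0.748 and 1.57. In CAF-1 OFF the intervals of the erythroid and megakaryocyte lists include 1.

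Ctla2a and Lgals9 had the lowest ratios in CAF-1 OFF, at −2.63 and −2.32 on the log2 scale, while in HOXA9 OFF Cpa3 had the lowest of all genes tested, at −3.66. Ctla2a, an inhibitor of cathepsin-like cysteine proteases, was at 42.7 CPM (22.1 to 74.6) in Elane-positive and 367 CPM (347 to 388) in Elane-zero cells of CAF-1 OFF, 8.59-fold lower (4.90 to 16.7). In HOXA9 OFF its level was 45.0 CPM (18.1 to 92.6) against 271 CPM (254 to 288), 6.02-fold lower (2.91 to 15.01). Ctla2a was found in 8 of 46 and 5 of 17 Elane-positive cells, and in 429 of 524 and 323 of 404 Elane-zero cells. At 3000 UMIs per cell these shares were 8.89% and 17.6% against 62.6% and 48.2%. Lgals9, the sugar-binding protein galectin-9, was at 53.4 against 347 CPM (6.502-fold lower, 3.93 to 11.7) and at 51.4 against 277 CPM (5.40-fold lower, 2.73 to 12.5). It was found in 9 of 46 and 8 of 17 Elane-positive and 425 of 524 and 327 of 404 Elane-zero cells, and at 3000 UMIs per cell the shares were 15.6% against 59.1% and 17.6% against 50.3%.

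Genes of early progenitors were mostly lower, and few by 2-fold. Hlf, a transcription factor of stem and early progenitor cells, was at 46.3 against 118 CPM and 19.3 against 122 CPM, log2 ratios of −1.06 and −1.85. Cd34, the surface antigen of progenitors, was at 459 against 789 CPM (ratio 0.582, 0.484 to 0.694) and 514 against 674 CPM (0.762, 0.602 to 0.952), and was still found in 39 of 46 and 16 of 17 Elane-positive cells. Flt3, a cytokine receptor of early progenitors, had log2 ratios of −1.23 and −0.96 and Sox4 of −1.19 and −0.48. Kit, the receptor of the stem cell factor in the medium, was at 35.6 against 88.3 CPM in CAF-1 OFF cells and at 83.5 against 82.4 CPM in HOXA9 OFF. Myb was at 0.09 and −0.42. Of the 12 progenitor genes, 6 were tested, 2 were at least 2-fold lower in CAF-1 OFF cells and 0 in HOXA9 OFF, where 1, Cd33, was higher. Their median was −0.86 and −0.40, beside −0.05 and −0.04 for all genes. Among all genes tested, 1.16% and 1.96% were at least 2-fold lower and 1.44% and 1.52% higher.

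The other genes lower in both libraries were Ptprcap, a partner of CD45 (−2.27 and −1.15), Gch1, which starts the synthesis of tetrahydrobiopterin (−2.01 and −1.22), Tspan13, a tetraspanin (−1.83 and −1.23), S100a6 (−1.38 in both), Cox6a2 (−1.32 and −1.42), Marcksl1 (−1.27 and −1.21), Vamp5 (−1.26 and −1.74), H2-DMa of antigen loading (−1.08 and −1.03) and 2310075C17Rik (−1.07 and −1.53). Igll1, the surrogate light chain known from B cell precursors, was lower in CAF-1 OFF only, at 99.7 against 339 CPM, and was at 353 against 355 CPM in HOXA9 OFF. The difference between the libraries was not tested. Dntt, of lymphoid precursors, had 0 UMIs in Elane-positive cells, and the lymphoid list summed to 160 against 313 CPM and 238 against 344 CPM.

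Mast cell and basophil genes were lower in Elane-positive cells, and eosinophil genes differed between libraries. Cpa3, the mast cell carboxypeptidase, was at 74.8 against 215 CPM in CAF-1 OFF cells and at 25.7 against 558 CPM in HOXA9 OFF, log2 ratios of −1.31 and −3.66. A single Elane-zero cell of HOXA9 OFF held 180 of its 1966 Cpa3 UMIs. The mast cell and basophil list summed to 117 against 299 CPM and 109 against 951 CPM, and Gata2, the factor of this branch, had 0 and 2 UMIs in Elane-positive cells. The median per cell of this list was 0 against 157 CPM in CAF-1 OFF cells and 83.2 against 293 CPM in HOXA9 OFF, so the direction did not rest on few rich cells. Prg2, the eosinophil major basic protein, was carried by few cells of either class. Its 58 UMIs in the Elane-positive cells of CAF-1 OFF came from 4 cells, with 50 in 1 cell, and 1 Elane-zero cell of HOXA9 OFF held 1123 of 3584. Without any cell with a Prg2 UMI, which kept 42 and 11 Elane-positive cells, 22 genes were higher and 13 lower in both libraries. The eosinophil list summed to 381 against 232 CPM in CAF-1 OFF (ratio 1.64, 1.33 to 2.01). In HOXA9 OFF it summed to 771 against 1681 CPM (0.459, 0.380 to 0.550). Of its 8 genes, 5 in each library had no UMI in Elane-positive cells, Epx and Ear1 among them. In the Elane-zero cells, whose sums are many times larger, 3 in each library had none.

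Most housekeeping groups differed little. Ribosomal protein genes took 288308 against 276073 CPM and 300980 against 283091 CPM, ratios of 1.04 and 1.06. Nucleolar genes of ribosome production had ratios of 0.967 (0.924 to 1.01) and 0.945 (0.889 to 1.00), and glycolysis genes of 0.965 and 0.868. S phase genes had ratios of 0.898 (0.838 to 0.962) and 0.985 (0.897 to 1.08). G2/M genes were at 0.943 (0.871 to 1.02) in CAF-1 OFF cells and at 0.689 (0.610 to 0.776) in HOXA9 OFF, where the class has 17 cells. Genes of the secretory pathway were at 1.14 and 1.03, and mitochondrial transcripts, which the cell filter acts on, at 1.12 and 1.03. Genes not expressed in blood cells had 0 UMIs in Elane-positive cells.

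The cells with 1 or 2 Elane UMIs entered neither class. Their levels are set beside the same Elane-zero cells that served to choose the named genes, and are a description. The levels were graded for several genes. Ms4a3 was at 40.6, 165, 406 and 833 CPM in cells with 0, 1, 2 and 3 or more Elane UMIs of the CAF-1 OFF library, and at 33.8, 72.0, 146 and 719 CPM in HOXA9 OFF. Slpi was at 56.3, 217, 448 and 929 CPM and at 75.5, 336, 546 and 1195 CPM, and Prtn3 at 1027, 1703, 2103 and 3364 CPM and at 1063, 1467, 1783 and 2794 CPM. Each of these genes had its lowest level in cells without Elane and its highest in the Elane-positive cells.

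Ctla2a went the other way across these classes, at 367, 208, 171 and 42.7 CPM in CAF-1 OFF cells and 271, 148, 164 and 45.0 CPM in HOXA9 OFF, where the interval of the cells with 2 UMIs overlaps that of the cells with 1. Lgals9 was at 347, 202, 149 and 53.4 CPM and at 277, 186, 91.0 and 51.4 CPM. The cells with 1 or 2 Elane UMIs were also pooled. Of the 27 genes higher in both libraries, 27 (CAF-1 OFF) and 26 (HOXA9 OFF) were above the Elane-zero level in them. Of the 13 genes lower in both, 9 and 13 were below it. Cpa3 in CAF-1 OFF was not graded, at 215, 247, 192 and 74.8 CPM. Among the higher genes, Ly6c2 was not graded by step. It stood at 0.593, 38.6, 0 and 413 CPM in CAF-1 OFF cells and at 0.568, 2.18, 0 and 276 CPM in HOXA9 OFF, so nearly all of it sat in cells with 3 or more Elane UMIs. The counts of 0 come from 12 and 6 cells with 2 Elane UMIs and are not a limit on the gene.

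**Figure D4:**
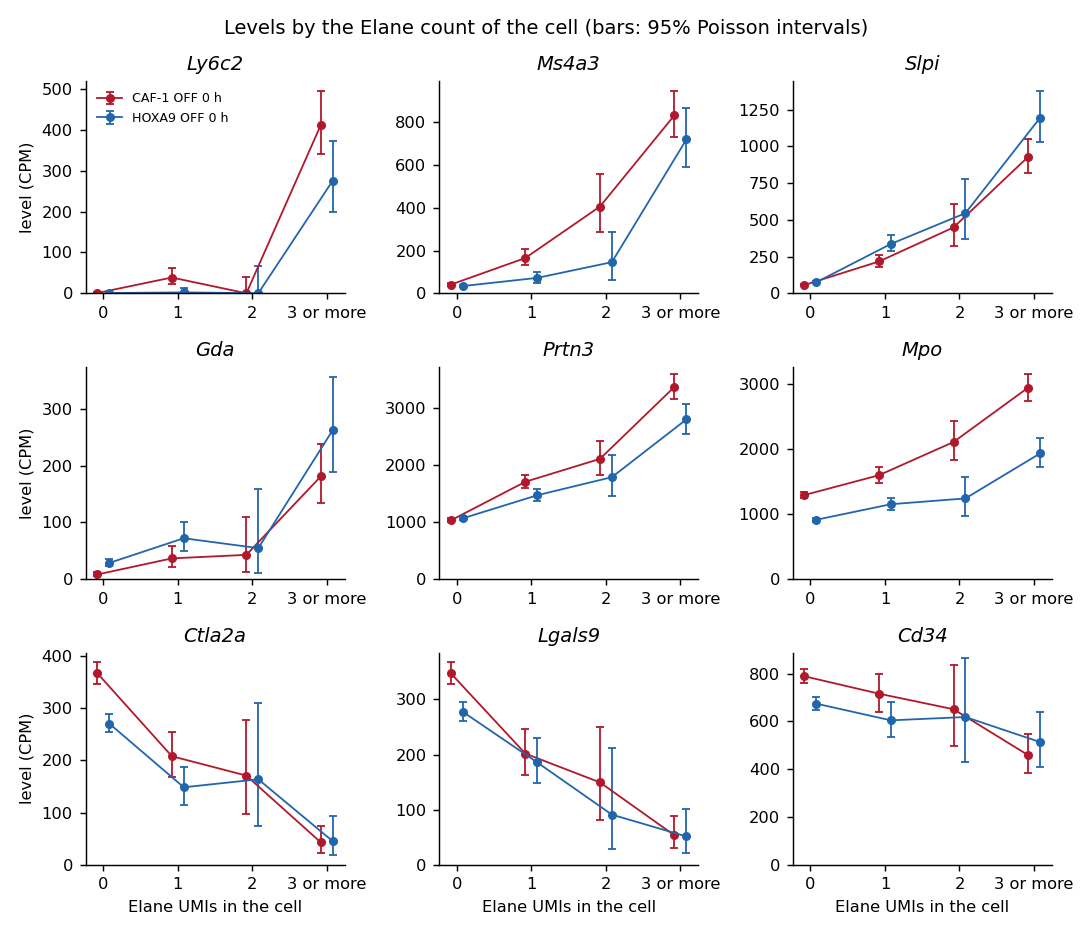
Level (CPM, vertical) of 9 genes in uninduced cells with 0, 1, 2 and 3 or more Elane UMIs (horizontal), in CAF-1 OFF (red) and HOXA9 OFF (blue), with exact 95% Poisson intervals as bars. Ms4a3, Slpi, Prtn3 and Mpo lie higher with each step, Ctla2a and Lgals9 are lowest in the Elane-positive cells, and Ly6c2 is at 413 and 276 CPM in the Elane-positive cells against at most 38.6 CPM elsewhere.

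The Elane-positive cells were not uniform. In CAF-1 OFF, 27 of them held 3 to 9 Elane UMIs and 19 held 10 or more. Ly6c2 was at 258 CPM (189 to 343) in the former and 701 CPM (545 to 887) in the latter, Ms4a3 at 597 and 1269 CPM, and Mpo at 2274 and 4164 CPM. Fcnb was at 21.9 and 91.4 CPM, while Rgcc (307 and 295 CPM) and Cebpe (164 and 152 CPM) were alike. In HOXA9 OFF only 3 cells held 10 or more, with Ly6c2 at 236 and 430 CPM and Mpo at 2014 and 1598 CPM, with overlapping intervals. Splitting the cells by Ly6c2 gave a related picture. The 22 Elane-positive cells of CAF-1 OFF with a Ly6c2 UMI had Elane at 2320 CPM, Ms4a3 at 1208 CPM and Pdcd4 at 403 CPM, and the 24 without had 1128, 576 and 132 CPM, although the cells with Ly6c2 were shallower (medians of 4808 and 6802.5 UMIs). Slpi was near equal, at 954 and 912 CPM. The monocyte genes Ccr2 (341 and 222 CPM), F13a1 (219 and 144 CPM) and Irf8 (87.6 and 42.0 CPM) had higher values in the cells with Ly6c2, with overlapping intervals. In HOXA9 OFF the 9 cells with and 8 cells without Ly6c2 had Elane at 1269 and 519 CPM, Pdcd4 at 249 and 112 CPM and Ms4a3 at 818 and 603 CPM. Ccr2 was at 178 and 196 CPM there, F13a1 at 130.4 and 98.1 CPM, and Irf8 had 0 UMIs in either.

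Cells were also chosen by other genes and their Elane counts read, with limits that differ between genes. The genes were among those with the largest ratios above, so an excess of Elane-positive cells was built into the choice. The shares are a description. Of the 29 cells of CAF-1 OFF with a Ly6c2 UMI, 22 were Elane-positive (75.9%), 5 held 1 or 2 Elane UMIs and 2 held none, and of the 12 in HOXA9 OFF 9 were Elane-positive (75%). Of the cells with 3 or more Ms4a3 UMIs, 24 of 45 and 12 of 30 were Elane-positive, and 8 and 13 held no Elane. With 3 or more Slpi UMIs, 34 of 66 and 14 of 61 were Elane-positive, so in HOXA9 OFF 27 of the 61 cells with this much Slpi had no Elane UMI. With 3 or more Gda UMIs, 7 of 8 cells were Elane-positive in CAF-1 OFF but 6 of 18 in HOXA9 OFF. The Elane-positive cells also lay near each other when cells were placed by their expression without Elane. Among the 15 nearest cells of an Elane-positive cell, 53.3% were Elane-positive in CAF-1 OFF cells and 27.1% in HOXA9 OFF, while Elane-positive cells made up 7.11% and 3.59% of the libraries. For Elane-zero cells these shares were 2.20% and 1.42%. Yet 4 and 1 Elane-positive cells had no Elane-positive cell among their nearest.

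The same rule was applied to the later libraries to set the uninduced Elane-positive cells beside those after induction. After IPTG, 374 of 927 cells (40.3%) at 48 h and 570 of 911 (62.6%) at 96 h held 3 or more Elane UMIs. After estradiol withdrawal, 244 of 1404 cells (17.4%) at 48 h and 1 of 1510 (0.0662%) at 96 h did, in libraries whose median depth was 3535.5 and 2043.5 UMIs. Time, treatment and library change together here, and with 1 library per point the differences were not tested.

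Uninduced Elane-positive cells shared granulocyte genes with both later arms, at other levels. Ly6c2 was at 413, 379 and 305 CPM in Elane-positive cells of CAF-1 OFF at 0, 48 and 96 h, and at 276 and 755 CPM in those of HOXA9 OFF at 0 and 48 h. Slpi was at 929, 4098 and 5562 CPM and at 1195 and 1993 CPM, and Cebpe at 160, 827 and 880 CPM and at 373 and 729 CPM. Prtn3 was highest at 0 h in CAF-1 OFF (3364, 2120 and 2073 CPM) and at 48 h in HOXA9 OFF (2794 and 4123 CPM).

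Several genes differed between the later arms, and their levels in the uninduced Elane-positive cells varied. Pf4, a megakaryocyte chemokine, was at 32.0 CPM at 0 h in CAF-1 OFF cells, and at 735 and 2618 CPM later. It had 0 UMIs at 0 h in HOXA9 OFF and was at 4.85 CPM at 48 h. Cpa3 stood at 74.8, 899.5 and 2443 CPM in CAF-1 OFF cells, and Ctla2a at 42.7, 163 and 430 CPM, while in HOXA9 OFF they were at 25.7 and 21.8 CPM and at 45.0 and 3.23 CPM. S100a8 had 0 UMIs at 0 h in CAF-1 OFF cells and 1 UMI in HOXA9 OFF, where it was at 3025 CPM at 48 h. Fcnb went from 70.7 to 554 CPM and Hp from 128 to 1076 CPM in HOXA9 OFF, and from 46.3 to 94.8 CPM and from 99.7 to 50.2 CPM between 0 and 96 h in CAF-1 OFF. Cd34 stood at 459, 580.3 and 654 CPM at the 3 times of the CAF-1 OFF library, and at 514 and 76.7 CPM at 0 and 48 h of HOXA9 OFF. The uninduced Elane-positive cells thus lay nearer to 1 arm or the other by gene. Cd34 was near its level in the CAF-1 OFF arm. As ratios, Ctla2a, Fcnb and Hp were nearer to CAF-1 OFF at 48 h (163, 78.2 and 83.8 CPM). Cpa3, and Pf4 in CAF-1 OFF, were nearer to HOXA9 OFF at 48 h. S100a8 was left out of this, with 0 and 1 UMI. The levels of Cd34 and Pf4 were not particular to the class. Uninduced Elane-zero cells held Cd34 at 789 and 674 CPM and Pf4 at 21.9 and 11.6 CPM.

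**Figure D5:**
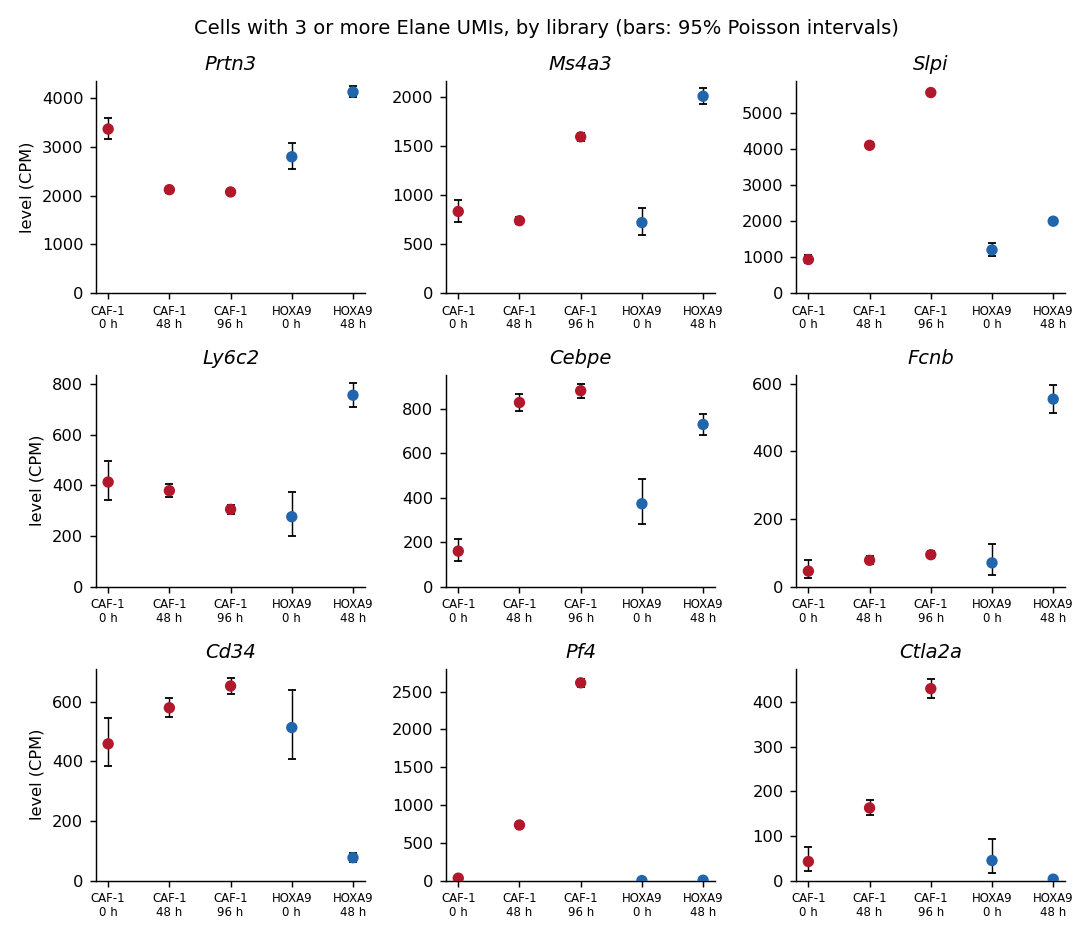
Level (CPM, vertical) of 9 genes in cells with 3 or more Elane UMIs in 5 libraries (horizontal), CAF-1 OFF in red and HOXA9 OFF in blue, with exact 95% Poisson intervals as bars. HOXA9 OFF at 96 h is left out because it held 1 such cell. Slpi, Pf4 and Ctla2a are highest in CAF-1 OFF at 96 h, Ly6c2, Ms4a3 and Fcnb in HOXA9 OFF at 48 h, where Cd34 is lowest.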

How the data were processed

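Live cells were sorted and loaded on 10x Chromium (v2) by the authors, who mapped reads to mm10 with Cell Ranger (version 3.0.1 in the submitters' processing notes) and deposited whole-number UMI counts for 7821 barcodes and 27998 gene columns. Cells with 200 to 6000 genes and at most 10% mitochondrial UMIs were kept, the limits of the study. Groups follow the labels. Class sums were divided by their total without Elane. Fold intervals are exact conditional binomial, levels exact Poisson, shares Clopper-Pearson (95%). A list gives the sum of all its genes and the median of those tested. Ratios were checked on simulated data. Scrublet called 38 and 24 uninduced cells, of which 2 and 0 were Elane-positive. The named genes are the 15 highest and 10 lowest in CAF-1 OFF past 2-fold, up to 15 per direction past 2-fold in both libraries, and list members. Ighm and Cebpd matched no gene column. The nearest cells came from 10 principal components of 1000 variable genes. The members and lists were chosen with earlier results of these data known. Promoters were matched by symbol for 1942 of the 2500 genes. NumPy 2.4.6, SciPy 1.17.1, Scanpy 1.11.5 and edgeR 4.0.16 (TMM factors only) were used.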

Additional observations from a re-analysis of the deposited data

Results flagged for a closer look

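Eosinophil granule genes had ratios of opposite sign in the uninduced libraries. The log2 ratio of Elane-positive over Elane-zero cells was 0.39 for Prg2 in CAF-1 OFF cells and −2.08 in HOXA9 OFF, and 1.17 and −0.26 for Prg3. The difference was not tested, since there is 1 library per arm. Prg2 UMIs were found in 4 of 46 and 6 of 17 Elane-positive cells and in 15 of 524 and 87 of 404 Elane-zero cells, and single Elane-zero cells held 203 and 1123 of them.

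Elane was also present in barcodes that no comparison used. Of the 463 barcodes of CAF-1 OFF at 0 h removed by the cell limits, 10 held 3 or more Elane UMIs (2.16%, 1.04 to 3.94), in barcodes with a median of 742 UMIs. In HOXA9 OFF at 0 h the count was 3 of 927 (0.324%).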

How the results depend on the processing

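No paired analysis was possible because each group is 1 library and the labels give no replicate numbers. Counts below are of genes in CAF-1 OFF, HOXA9 OFF and both, beside 36, 38 and 27 higher and 29, 49 and 13 lower, and only those that moved by over 1.5 times are given. With 2 Elane UMIs as the limit, 18 and 7 genes were lower (CAF-1 OFF, both), and with 5, which leaves 35 and 9 cells, 64 were higher in HOXA9 OFF and 50, 135 and 22 lower. A mitochondrial limit of 5% leaves 9 and 4 cells: 107 and 16 were higher (HOXA9 OFF, both), 103 and 197 lower (CAF-1 OFF, HOXA9 OFF), the share of Elane-positive cells was 2.94% and 1.89%, and the primary granule median in HOXA9 OFF was 0.34. A pseudocount of 5 CPM gave 55, 103 and 20 lower, and 50 CPM gave 22, 25 and 17 higher and 10, 21 and 5 lower. A level minimum of 20 CPM gave 60 higher in HOXA9 OFF and 65, 144 and 29 lower, 100 CPM gave 21, 20 and 17 higher and 10, 14 and 5 lower, and none gave 58 and 81 higher and 77, 208 and 33 lower. Totals without mitochondrial and ribosomal protein genes gave 64 higher in HOXA9 OFF and 52, 118 and 22 lower. At 1.5-fold, 75, 106 and 43 were higher and 155, 218 and 55 lower. The minimum over all kept cells, chosen after seeing the data as were the settings without Prg2 cells, gave 19, 21 and 14 higher, and 81 and 22 lower (HOXA9 OFF, both). Under TMM and median-of-ratios scaling, 27 and 27 genes were higher in both and 13 and 12 lower.

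The share of Elane-positive cells in HOXA9 OFF was 1.90% at 5 UMIs. Cells with any Elane UMI after thinning to 3000 UMIs made up 12.6% and 6.24%. Without thinning, the difference in share of cells with Ctla2a was −64.5 and −50.5 percentage points (−53.7 and −30.6 thinned), and with Lgals9 in CAF-1 OFF −61.5 (−43.5 thinned). Without a mitochondrial limit the median of the mitochondrial genes in CAF-1 OFF turned from 0.16 to −0.087. The cause of these shifts was not tested. Ly6c2 kept ratios of 3.19 to 6.22 and 2.69 to 5.66 over the alternatives, Slpi of 3.14 to 3.93 and 3.00 to 4.12, and Ctla2a of −3.27 to −1.66 and −2.72 to −1.35. With a mitochondrial limit of 5%, Clec12a and Gca in HOXA9 OFF came to 0.0038 and 0.25, Gsr in CAF-1 OFF to 0.42, Hlf there to −0.043 and Cox6a2 there to −0.33. The 17 Elane-positive cells of HOXA9 OFF hold 155675 UMIs, so a gene at 50 CPM rests on few molecules there.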

Other observations

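The sequence GAGGAAG (either strand, RefSeq promoters) was in 8 of the 22 promoters found for the genes higher in both libraries (36.4%) and in 2 of 11 of those lower in both (18.2%), beside 305 of 1942 for all genes tested (15.7%). Prtn3 and Mpo are among the former, and the sequence was chosen after looking at their promoters, so the shares are a description.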
